A study of Bos taurus with 2 samples.

Results

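The 10 genes described here encode proteins of glucose uptake and glycolysis, and they were examined in single-cell RNA sequencing data of cultured bovine satellite cells. They were chosen by name and are SLC2A1, HK1, HK2, GPI, ALDOA, TPI1, PGK1, ENO1, LDHA and LDHB, 10 of the 21867 genes in the deposited feature list. Each of them was found in the list under its symbol, had UMIs in both libraries and passed the filter on low counts in all 15 comparisons of a cluster with the other cells. Glycolysis breaks glucose down to pyruvate in the cytosol and yields ATP without oxygen. In proliferating cells it also supplies carbon for the synthesis of nucleotides, lipids and amino acids, and in working muscle it supplies ATP quickly, with lactate as a product. SLC2A1 (GLUT1) carries glucose across the plasma membrane, HK1 and HK2 are hexokinases that trap it as glucose-6-phosphate, and GPI converts this to fructose-6-phosphate. ALDOA splits the phosphorylated hexose, TPI1 interconverts the resulting trioses, PGK1 forms ATP and ENO1 makes phosphoenolpyruvate. LDHA and LDHB are the subunits of lactate dehydrogenase, which interconverts pyruvate and lactate. The steps of phosphofructokinase, GAPDH, phosphoglycerate mutase and pyruvate kinase are not among the 10 genes and are given separately.

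All cells came from the longissimus muscle of 1 male Holstein calf aged 2 weeks. They had been isolated by pronase digestion and differential centrifugation and grown for 1 week in growth medium with 10% fetal bovine serum. There was no treatment and no control group, and the 2 libraries, called library 1 and library 2, were prepared from the same cells. Comparisons were therefore made between clusters of cells, of which the deposited table had 15. A p-value here measures the spread between library preparations and not between animals, and since the same UMIs had served to find the clusters, a small p is not independent evidence of a difference between cell types. The level of a gene is its number of UMIs (unique molecular identifiers, each marking 1 captured RNA molecule) per 10000 UMIs of a cluster, given as mean ± SD of the 2 libraries. The platform counts molecules at their 3' end, so levels were not divided by transcript length when genes were compared. A gene was called higher or lower at an adjusted p under 0.05 in edgeR's quasi-likelihood test on the UMI sums of each library, with the Benjamini-Hochberg adjustment over all genes tested. This test did not pair the sums by library, so a library difference common to both sides counted as spread. An alternative fit with a library block took the pairing into account. Fold changes were scaled by TMM, which centres the bulk of genes, so that they can differ from the ratio of 2 levels.

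The data held 19096 cells, 9939 from library 1 and 9157 from library 2, with 145631299 and 137818568 UMIs. The median was 14889 UMIs per cell, 27 cell barcodes occurred in both libraries, and 7.32% of the cells were called doublets and kept. The median depth was between 647 and 2513.5 UMIs per cell in clusters 7, 13, 14 and 15, which are called shallow below, and at least 5398.5 in the other 11, which are called deep. Ribosomal protein genes summed to 839 UMIs per 10000 in cluster 7 and to between 2046 and 2785 in the others. The 6 satellite cell markers summed to between 0.426 UMIs per 10000 in cluster 9 and 10.4 in cluster 7, of which ITGA7 made up the most (2.17 over all cells), whereas PAX7 was at 0.00620. The myoblast markers MYOD1 and MYF5 were at 4.05 and 0.95. The 7 myocyte markers summed to 58.2 UMIs per 10000 in cluster 12, 8.97 in cluster 3 and between 0.313 and 10.7 elsewhere. Sums of 20 S phase genes were highest in clusters 11 (31.4) and 6 (30.9), and sums of 20 G2/M genes in clusters 2 (85.4) and 4 (81.7). In clusters 1, 3, 8 and 12 the S phase sum was between 4.39 and 7.53. The study called clusters 7 and 9 fibro-adipogenic. Cluster 9 was lower than the other cells in 5 of 5 satellite cell, 4 of 4 myoblast and 7 of 7 myocyte markers tested. It was higher in 4 of 7 fibro-adipogenic markers and lower in 2. Of all genes tested, 25.3% were called higher and 27.7% lower in cluster 9. Summed markers of endothelial, immune and red blood cells stayed between 0 and 0.185 UMIs per 10000 in every cluster.

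Over all cells the 10 genes held 1755193 UMIs, or 61.9 ± 0.0789 UMIs per 10000 (SD, n = 2 libraries) and 91.9 per cell. ENO1 (ENSBTAG00000013411) alone made up 36.1% of these, with a level of 22.3 ± 0.231. It was followed by TPI1 (ENSBTAG00000019782) at 9.27 ± 0.0668, ALDOA (ENSBTAG00000012927) at 7.93 ± 0.0322 and LDHB (ENSBTAG00000019603) at 6.96 ± 0.251. PGK1 (ENSBTAG00000000894) stood at 6.62 ± 0.0713 and LDHA (ENSBTAG00000008683) at 5.19 ± 0.0481. The genes of the entry into the pathway were far lower than those of its later steps. GPI (ENSBTAG00000006396) was at 2.04 ± 0.0336, HK1 (ENSBTAG00000012380) at 1.08 ± 0.0529 and SLC2A1 (ENSBTAG00000009617) at 0.403 ± 0.000547. HK2 (ENSBTAG00000013108) was the lowest, at 0.0770 ± 0.00209 and 2184 UMIs in all. The libraries differed by little but often in 1 direction. Library 1 was the higher one in 0 of 15 clusters for HK1, 1 for ENO1 and 2 for PGK1, and in 14 for LDHB, 13 for GPI and 11 for LDHA.

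**Figure D1:**
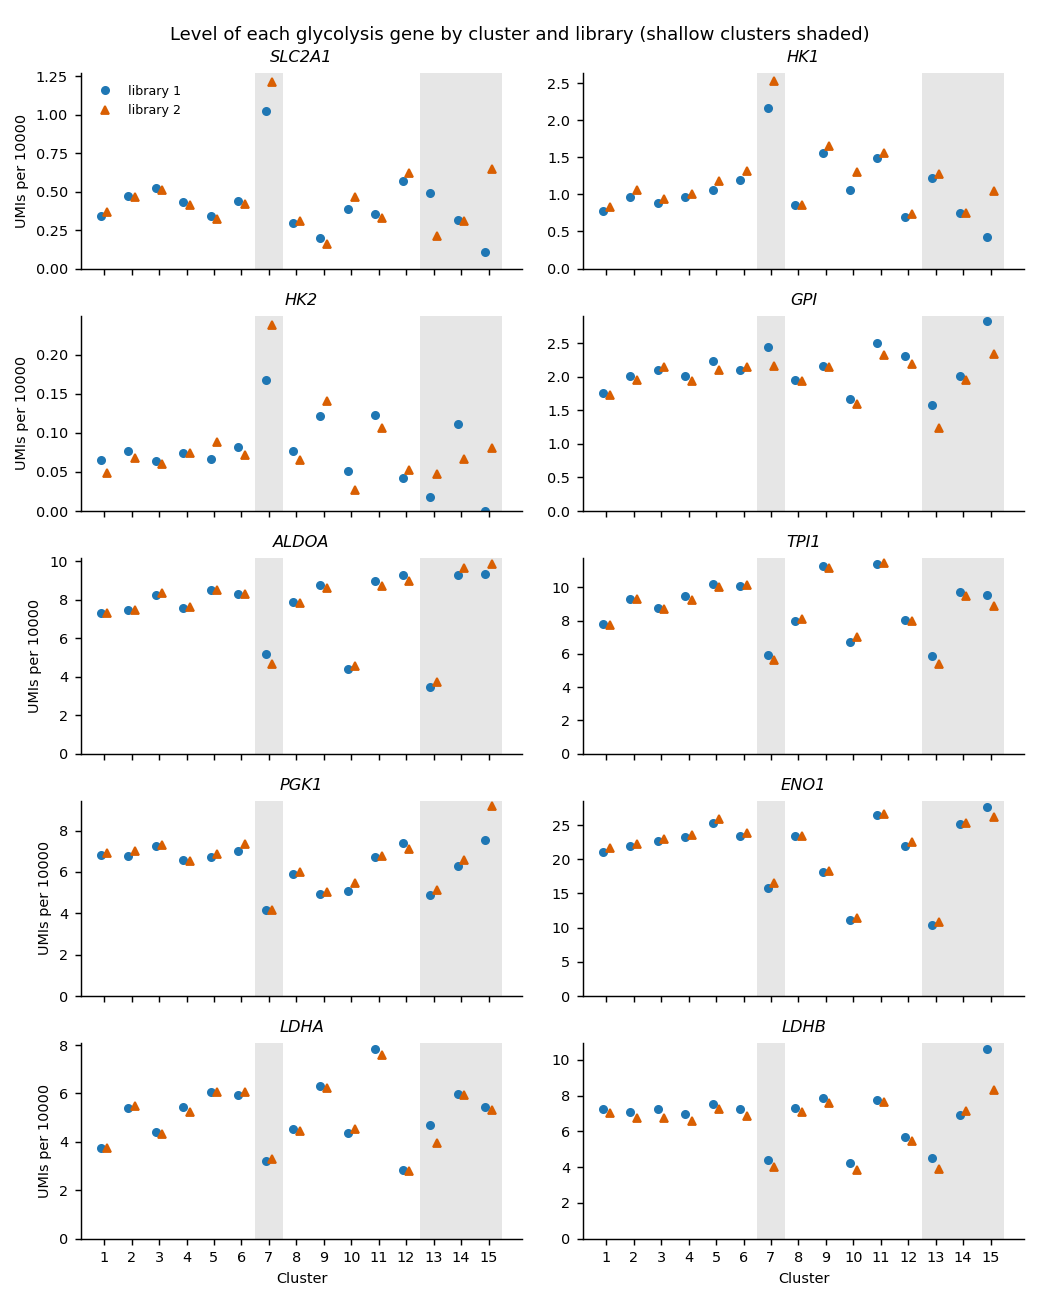
Level of each of the 10 genes (UMIs per 10000 UMIs, linear axes from 0) in the 15 clusters, with a circle for library 1 and a triangle for library 2, and the shallow clusters 7, 13, 14 and 15 shaded. LDHA has its lowest points in cluster 12 (2.85 and 2.79) and its highest in cluster 11 (7.82 and 7.60), whereas the lowest SLC2A1 points of the deep clusters are in cluster 9 (0.198 and 0.161).

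The summed level of the 10 genes differed between the deep clusters by a factor of 1.85. It was highest in cluster 11, at 73.7 in library 1 and 73.2 in library 2, followed by cluster 5 at 68.0 and 68.3 and cluster 6 at 65.8 and 66.5. Most other deep clusters lay close together, from 57.0 and 57.3 in cluster 1 to 62.9 and 62.1 in cluster 4. Cluster 12, with the high myocyte markers, fell inside this range at 58.8 and 58.4. Cluster 10 stood below all other deep clusters, at 39.2 and 40.2. Of the shallow clusters, 13 (37.2 and 35.6) and 7 (44.6 and 44.4) were low, and 14 (66.4 and 67.1) and 15 (73.5 and 71.8) were high. The sum of clusters 7, 13 and 15 rested on 9415, 3636 and 1592 UMIs. Counted per cell, without dividing by depth, the sum ran from 30.6 UMIs in cluster 10 to 150 in cluster 9 among the deep clusters, so the order of clusters changes with the scale. Over the 11 deep clusters the summed level had a Pearson correlation of 0.83 with the median depth and of -0.76 with the ribosomal protein level. Cluster 10 lay apart from the other deep clusters in both depth and sum. Its median was 5398.5 UMIs per cell and its sum 39.7, against 12929 to 23011 and 57.1 to 73.4 in the others. The correlations were not computed without cluster 10. These correlations rest on 11 clusters that share 2 libraries, and the part of depth in the differences between clusters was not tested.

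**Figure D2:**
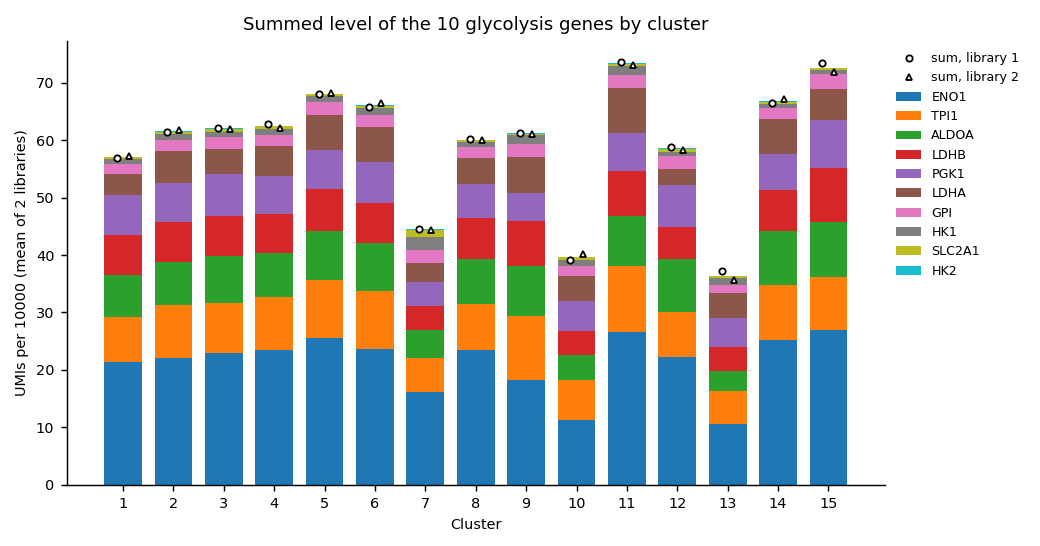
Summed level of the 10 genes by cluster (UMIs per 10000 UMIs). Bars stack the mean levels of the genes over 2 libraries from ENO1 at the bottom to HK2 at the top, and open symbols give the sum in each library. The sum was highest in clusters 11 (73.4) and 15 (72.7) and lowest in clusters 13 (36.4) and 10 (39.7).

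SLC2A1, the glucose transporter, was higher in the clusters with muscle differentiation markers and lowest in cluster 9. In cluster 12 it had 0.569 UMIs per 10000 in library 1 and 0.623 in library 2, in cluster 3 it had 0.520 and 0.513, and in cluster 1 0.340 and 0.369. In cluster 9 the values were 0.198 and 0.161. No library of cluster 9 overlapped with any library of another deep cluster. Cluster 12 exceeded all other cells by a log2 fold change of 0.78 ± 0.07 (SE, adjusted p 0.000144), and cluster 9 was below them by -1.28 ± 0.09 (adjusted p 9.52e-05). The shallow cluster 7, which the study called fibro-adipogenic like cluster 9, had the highest level of all, 1.03 and 1.21, on 240 UMIs. In the order of the 15 levels, 7 of 14 neighbours had libraries that did not overlap, beside 32.9% of neighbours over the 7005 genes at 0.1 UMI per 10000 or more. The neighbours from cluster 6 (0.429) down to cluster 5 (0.331) were not separated from each other.

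The main hexokinase transcript was HK1, which held 92.3% to 96.7% of the HK1 and HK2 UMIs in the deep clusters. Its level was 1.56 and 1.65 in cluster 9 and 1.49 and 1.56 in cluster 11. Across libraries these 2 clusters were not separated from each other, while within each library cluster 9 was the higher one. The lowest deep values were 0.688 and 0.730 in cluster 12. Cluster 9 was higher than the other cells by 0.61 ± 0.05 (adjusted p 0.000201) and cluster 11 by 0.48 ± 0.05 (adjusted p 0.00167) on the log2 scale, and cluster 12 was lower by -0.45 ± 0.06 (adjusted p 0.00102). HK2, the hexokinase that is typical of muscle and of growing cells, was likewise highest among the deep clusters in clusters 9 and 11. It reached 0.121 and 0.140 in cluster 9 and 0.122 and 0.106 in cluster 11, against 0.0423 and 0.0527 in cluster 12 and 0.0513 and 0.0269 in cluster 10. These rest on 343, 178, 59 and 30 UMIs. HK2 was called higher in cluster 9 by 0.83 ± 0.11 (adjusted p 0.00101) and lower in cluster 12 by -0.54 ± 0.15 (adjusted p 0.0240), and the latter call was lost under 2 of 8 alternative settings. In most of its order the clusters could not be separated, with 2 of 14 neighbours apart. The share of 32.9% given above covers genes at 0.1 UMI per 10000 or more. HK2, at 0.0770 over all cells, is below this limit, and no share was computed for genes at its level. HK2 had 3 UMIs in cluster 13 and 1 in cluster 15, so its levels there are not compared.

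GPI, the isomerase, varied least among the genes of the upper pathway, by a factor of 1.48 over the deep clusters. It had 2.51 and 2.33 UMIs per 10000 in cluster 11, 2.32 and 2.19 in cluster 12, 1.76 and 1.74 in cluster 1 and 1.67 and 1.60 in cluster 10. ALDOA, the aldolase of muscle and of most other cells, was highest among the deep clusters in cluster 12. There it had 9.29 and 8.98, against 7.31 and 7.32 in cluster 1 and 4.42 and 4.56 in cluster 10. Cluster 12 was above the other cells by 0.40 ± 0.05 (adjusted p 0.000838) and cluster 10 below by -0.95 ± 0.05 (adjusted p 4.27e-05) on the log2 scale. TPI1, the triose isomerase, had another order, with 11.4 and 11.4 in cluster 11 and 11.3 and 11.2 in cluster 9, and with 8.02 and 7.95 in cluster 12. Its log2 difference from the other cells was 0.27 ± 0.04 in cluster 11 (adjusted p 0.00341) and 0.28 ± 0.04 in cluster 9 (adjusted p 0.00251). In cluster 12 it was -0.04 ± 0.05 and was not called (adjusted p 0.474).

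PGK1 and ENO1, which act after the trioses, shared a low level in cluster 9. PGK1 had 4.92 and 5.05 UMIs per 10000 there, below the 7.42 and 7.12 of cluster 12 and the 7.26 and 7.28 of cluster 3. Its log2 difference from the other cells was -0.48 ± 0.04 in cluster 9 (adjusted p 0.000221) and 0.32 ± 0.05 in cluster 12 (adjusted p 0.00205). ENO1 had 18.1 and 18.3 in cluster 9, against 21.1 and 21.6 in cluster 1 and 26.5 and 26.7 in cluster 11. It was called lower in cluster 9 (-0.36 ± 0.04, adjusted p 0.000714) and higher in cluster 11 (0.22 ± 0.03, adjusted p 0.00581). The deepest fall of ENO1 among deep clusters was in cluster 10, where 11.2 and 11.4 UMIs per 10000 gave a log2 difference of -1.12 ± 0.05 (adjusted p 2.38e-05). ENO1 in cluster 12 had levels of 21.9 and 22.5, which did not stand apart from the 22.3 of the remaining cells. Its call there as higher (0.17 ± 0.04, adjusted p 0.0182) came with the TMM scaling, and without it the value was -0.01.

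LDHA showed the widest spread of the abundant genes, by a factor of 2.73 between clusters 11 and 12. In cluster 12 it had 2.85 and 2.79 UMIs per 10000, in cluster 1 3.75 and 3.74, in cluster 3 4.41 and 4.31 and in cluster 8 4.54 and 4.44. In clusters 2, 4, 5, 6, 9 and 11 its mean level was between 5.33 and 7.71, so that these 6 deep clusters, with S phase sums between 19.7 and 31.4, all lay above clusters 1, 3, 8 and 12. The shallow cluster 7, with an S phase sum of 23.5, had 3.19 and 3.28. Cluster 10, with an S phase sum of 15.3, had 4.38 and 4.52. LDHA was called lower in cluster 12 (-0.73 ± 0.05, adjusted p 5.77e-05) and in cluster 1 (-0.45 ± 0.03, adjusted p 0.000481), and higher in cluster 11 (0.56 ± 0.04, adjusted p 0.000292). Over the 15 comparisons with all other cells it was called in 12, the most of the 10 genes, 5 times as higher and 7 times as lower. LDHB was flatter, at 6.58 to 7.89 in each library of 9 of the 11 deep clusters. It had 5.69 and 5.49 in cluster 12 and 4.24 and 3.86 in cluster 10. Its calls were 3, in clusters 7, 10 and 13, all as lower. In cluster 12 its log2 difference of -0.15 ± 0.06 was not called (adjusted p 0.0700), but the fit with a library block called it, at an adjusted p of 6.82e-08 (range 6.82e-08 to 0.797 over 8 alternatives).

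The balance of the 2 lactate dehydrogenase genes does not depend on the total of a cluster. LDHA held 33.4% and 33.7% of the LDHA and LDHB UMIs in cluster 12 and 34.1% and 34.8% in cluster 1. It held 38.4% in clusters 3 and 8 as the mean of both libraries, between 44.0% and 45.9% in clusters 2, 4, 5, 6 and 9, 50.1% and 49.8% in cluster 11 and 52.4% ± 2.19 in cluster 10. The 95% exact binomial interval, which covers counting error only, was 32.7% to 34.5% in cluster 12 and 49.3% to 50.6% in cluster 11. LDHA is the subunit that predominates in fast muscle and LDHB the one that predominates in heart. The enolase balance changed in another way, with ENO1 at 86.5% ± 0.574 of the ENO1 and ENO3 UMIs in cluster 12 and between 93.7% and 99.2% in the other clusters. ENO3 is the muscle enolase.

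**Figure D3:**
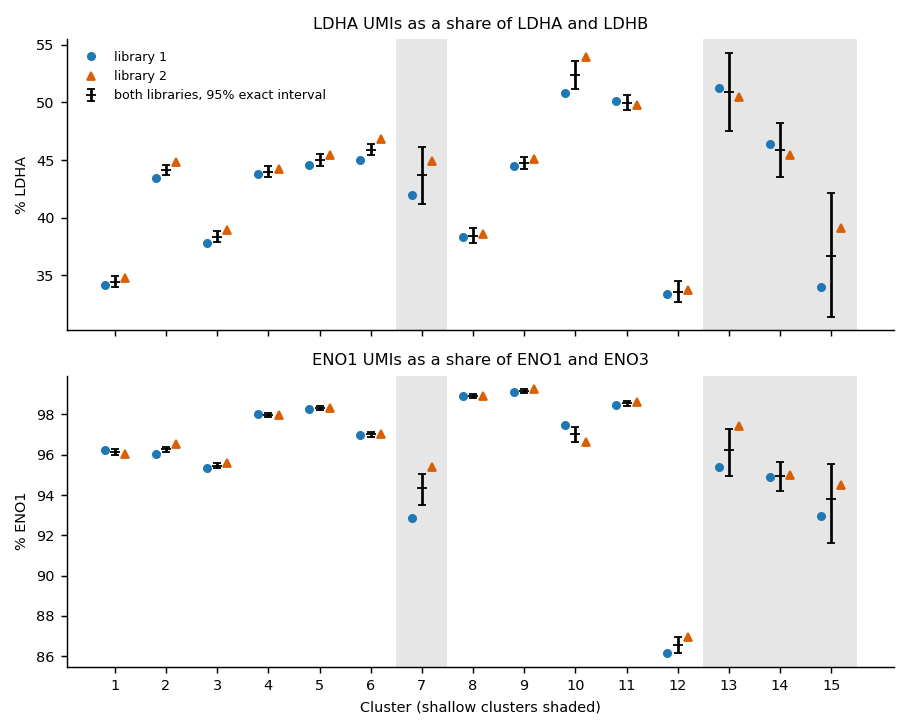
Percent of LDHA among LDHA and LDHB UMIs (upper panel) and of ENO1 among ENO1 and ENO3 UMIs (lower panel) in each cluster, with circles for library 1, triangles for library 2, and bars for the 95% exact binomial interval over both libraries. Neither axis starts at 0. The LDHA share was 33.6% in cluster 12 and 50.1% and 49.8% in cluster 11, and the ENO1 share was lowest in cluster 12 at 86.5%.

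Cluster 12, with the high myocyte markers, was called different from all other cells in 8 of the 10 genes, 5 as higher and 3 as lower, beside 54.3% of all 13224 genes tested, 24.8% as higher and 29.5% as lower. SLC2A1, GPI, ALDOA, PGK1 and ENO1 were higher and HK1, HK2 and LDHA were lower. The median log2 fold change of the 10 genes was 0.06, and that of all genes tested was -0.09. Of the proliferation genes, 19 of 20 S phase and 20 of 20 G2/M genes were lower in this cluster, and their part in these values was not tested. Without the TMM scaling, which shifted the median of all genes by 0.18, 4 of the 10 were called higher and 5 lower, beside 18.5% and 39.4% of all genes.

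In cluster 9, with lower muscle markers than the other cells, 7 of the 10 genes were called, beside 53% of all genes tested, 25.3% as higher and 27.7% as lower. HK1, HK2, TPI1 and LDHA were higher, and SLC2A1, PGK1 and ENO1 were lower. The genes of this cluster thus did not share a direction, and their summed level of 61.2 was close to the 61.9 of all cells. ALDOA (0.11 ± 0.04, adjusted p 0.0671) and LDHB (0.14 ± 0.05, adjusted p 0.0772) were not called, although with the library block the adjusted p was 0.00134 for ALDOA (range 1.09e-07 to 0.178 over 8 alternatives) and 0.000260 for LDHB (range 3.16e-06 to 0.204 over 8 alternatives). The median of the 10 genes was 0.13 and that of all genes -0.04.

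Clusters 7, 10 and 13 had low levels of most of the abundant genes. In cluster 10, 8 of the 10 were called, all lower, beside 38.6% of all genes called, 16.7% as higher and 21.9% as lower. Besides ENO1 and ALDOA, LDHB fell by 0.92 ± 0.06 and TPI1 fell by 0.56 ± 0.05 on the log2 scale, with adjusted p-values of 9.49e-05 and 0.000311. SLC2A1 and HK1 were not called there, at -0.03 ± 0.09 and 0.02 ± 0.09. Cluster 13 had 7 of 10 genes called, all lower, beside 17.3% of all genes called, 5.98% as higher and 11.3% as lower. In cluster 7 all 10 genes were called, 3 higher and 7 lower, beside 44.7% of all genes, 18.3% as higher and 26.4% as lower. SLC2A1 (0.86 ± 0.11), HK1 (0.49 ± 0.11) and HK2 (0.80 ± 0.22) were higher and the 6 genes from ALDOA to LDHB were lower, by between -1.11 and -1.38. GPI was called lower in cluster 7 (-0.48 ± 0.09, adjusted p 0.00807), but its levels of 2.45 and 2.16 were above the 2.04 of the other cells, and without TMM the value was 0.17. The scaling shifted the median of all genes by -0.65 in this cluster, which had few ribosomal protein UMIs and a median of 1389 UMIs per cell. The part of depth in these values was not tested.

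Higher levels of several genes came together in clusters 11, 6 and 5, with S phase sums of 31.4, 30.9 and 19.7. Clusters 2, 4 and 9 had S phase sums within the same range. Over the 11 deep clusters the summed level of the 10 genes had a Pearson correlation of 0.30 with the S phase sum. In cluster 11, 7 genes were called, beside 26.5% of all genes, 12.8% as higher and 13.7% as lower. HK1, HK2, GPI, TPI1, ENO1 and LDHA were higher, and SLC2A1 was lower (-0.30 ± 0.06, adjusted p 0.0155). With the block 8 were higher and 1 lower, beside 39.6% of all genes. The median of the 10 genes was 0.21 and that of all genes -0.01. In cluster 6, HK1, TPI1, PGK1, ENO1 and LDHA were called, all higher, beside 20.1% of all genes, 10.6% as higher and 9.48% as lower. With the library block 9 genes were called, all higher, beside 40.5% of all genes under the block. LDHA there had 5.94 and 6.04 UMIs per 10000, 0.28 ± 0.03 above the other cells on the log2 scale (adjusted p 0.00594). Doublets made up 17.2% of the cells of cluster 6, the highest share, and 5 genes were called there without them, beside 24.5% of all genes. Cluster 5 had ALDOA, TPI1, ENO1 and LDHA called as higher and SLC2A1 as lower, beside 24.1% of all genes, 12% in each direction, and with the block 8 were higher and 1 lower, beside 39.2% of all genes. ENO1 in cluster 5 had 25.3 and 25.9 UMIs per 10000, a difference of 0.26 ± 0.03 (adjusted p 0.00490).

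Cluster 1, with low sums of S phase, G2/M and myocyte genes, had PGK1 called as higher and HK1, GPI, TPI1 and LDHA as lower, beside 33.4% of all genes, 14.6% as higher and 18.8% as lower. With the block 2 were higher and 7 lower there, beside 49.7% of all genes. Without TMM 6 were called, all lower, beside 10.3% of all genes as higher and 25.2% as lower. In cluster 8, HK1 (-0.31 ± 0.05), TPI1 (-0.17 ± 0.03) and LDHA (-0.17 ± 0.04) were lower together with SLC2A1 and PGK1, while ENO1 was higher, beside 46% of all genes, 22.5% as higher and 23.5% as lower. Without TMM, 5 genes were lower in cluster 8 and 0 higher, beside 26.3% and 20.1% of all genes. PGK1 in cluster 8 was at 0.0084 when the other clusters were weighted equally. The calls of ENO1, TPI1 and LDHA there were lost under 3, 2 and 2 of 8 alternative settings. Cluster 3 had SLC2A1, GPI, ALDOA, PGK1 and ENO1 called as higher and HK1 and LDHA as lower, beside 49.9% of all genes, 24.5% as higher and 25.4% as lower. Without TMM, 2 were higher and 4 lower in cluster 3, beside 16.4% and 34.2% of all genes. Its LDHA value of -0.15 ± 0.05 was 0.06 after reclustering without glycolysis genes, and its HK1 call was lost under 4 of 8 alternative settings. The new cluster matched to cluster 3 shared with it a fraction of 0.527 of the cells in either, so the 2 LDHA values rest partly on different cells.

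The 2 clusters with high G2/M sums differed little from the other cells. In cluster 2, SLC2A1 was called higher (0.24 ± 0.04, adjusted p 0.0105) and ALDOA lower (-0.11 ± 0.03, adjusted p 0.0400), beside 31.8% of all genes, 15% as higher and 16.8% as lower. ALDOA was at 0.06 there when the other clusters were weighted equally, and with the block 3 were higher and 4 lower, beside 47.4% of all genes. In cluster 4, 0 genes were called by edgeR's quasi-likelihood test, beside 31.6% of all genes, 16.3% as higher and 15.3% as lower. HK1 came closest (-0.16 ± 0.05, adjusted p 0.0523) and was the only one of the 10 with an unadjusted p under 0.05. DESeq2 called 1 gene, beside 24% of all genes, and with the block 1 gene was higher and 4 lower, beside 49.9%. Cluster 14 had ALDOA, ENO1 and LDHA called as higher, beside 7.79% of all genes, 3.73% as higher and 4.07% as lower, and 5 genes with the block, 4 of them higher, beside 11.8%. Without TMM, 1 was higher and 1 lower, beside 2.41% and 6.17% of all genes. In cluster 15, DESeq2 called 0 genes, beside 1.93% of all genes. By edgeR 0 were called there too, beside 0.273% of all genes, 0.039% as higher and 0.234% as lower. TPI1 alone had an unadjusted p under 0.05. Its sums held 1592 UMIs of the 10 genes, and a missed threshold at this depth does not show equal levels. Over the 15 comparisons together, 80 of 150 values were called, 38 higher and 42 lower, beside 32.1% of all 196010 tests of genes.

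The steps from non-cycling myoblasts to myocytes were compared directly, as cluster 3 against cluster 1 and cluster 12 against cluster 3. From cluster 1 to cluster 3, 7 of the 10 genes were called and all were higher, beside 40.2% of all genes called, 21.1% as higher and 19.1% as lower. SLC2A1 had the largest difference (0.58 ± 0.06, adjusted p 0.000518), followed by GPI (0.32 ± 0.04, adjusted p 0.00107) and LDHA (0.26 ± 0.04, adjusted p 0.00317). HK1, ALDOA, TPI1 and ENO1 differed by between 0.14 and 0.22, and PGK1 was added with the block, at an adjusted p of 1.04e-06 (range 1.04e-06 to 0.293 over 8 alternatives). The median of the 10 genes was 0.21 and that of all genes 0.00. All 7 myocyte markers were higher in cluster 3 than in cluster 1, and 5 of 20 S phase genes were higher and 5 lower.

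From cluster 3 to cluster 12 the genes no longer moved together. SLC2A1 (0.30 ± 0.07, adjusted p 0.0126), ALDOA (0.24 ± 0.05, adjusted p 0.00790) and GPI (0.18 ± 0.06, adjusted p 0.0447) were higher. LDHA (-0.53 ± 0.05, adjusted p 0.000176), HK1 (-0.26 ± 0.06, adjusted p 0.0173) and LDHB (-0.23 ± 0.06, adjusted p 0.0188) were lower. These 6 calls stand beside 33.8% of all genes called, 18.2% as higher and 15.6% as lower, and the median of the 10 genes was 0.01 against -0.02 for all genes. LDHA thus had 3.74, 4.36 and 2.82 UMIs per 10000 in clusters 1, 3 and 12, whereas SLC2A1 had 0.354, 0.517 and 0.596 and ALDOA 7.31, 8.27 and 9.14. DESeq2 called 3 of the 10 genes, beside 21% of all genes. The GPI call was lost under 4 and the SLC2A1 call under 3 of 8 alternative settings. Without TMM 1 gene was higher and 4 lower, beside 14.4% and 23.4% of all genes. With the block PGK1 was also called at 0.10, with an adjusted p of 0.00233 (range 0.00233 to 0.997 over 8 alternatives).

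Cluster 2, with high G2/M genes, was compared with the non-cycling cluster 1. Here LDHA differed most, with 5.41 and 5.47 against 3.75 and 3.74 UMIs per 10000 (0.49 ± 0.04, adjusted p 5.99e-05). SLC2A1 (0.35 ± 0.06, adjusted p 0.00408), HK1 (0.29 ± 0.06, adjusted p 0.00648), TPI1 (0.21 ± 0.04, adjusted p 0.00299) and GPI (0.13 ± 0.04, adjusted p 0.0432) were also higher. The 5 calls stand beside 41.9% of all genes called, 22.7% as higher and 19.3% as lower. ENO1 and ALDOA, which are abundant, were at 0.00 ± 0.03 and -0.02 ± 0.03, and LDHB was at -0.10 ± 0.04 and was called lower with the block, at an adjusted p of 3.02e-05 (range 3.02e-05 to 0.367 over 8 alternatives). All 20 S phase and all 20 G2/M genes were higher in cluster 2. This comparison and that of clusters 3 and 1 share the sums of cluster 1.

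Against the 7 clusters that the study placed in the myogenic lineage (1, 2, 3, 4, 5, 8 and 12), cluster 9 differed in 8 of the 10 genes, beside 56.5% of all genes, 28.9% as higher and 27.6% as lower. SLC2A1 was lower (-1.26 ± 0.10, adjusted p 0.000256), with 0.198 and 0.161 against 0.426 and 0.425 UMIs per 10000. HK2 (0.93 ± 0.10, adjusted p 0.000746) and HK1 (0.76 ± 0.05, adjusted p 0.000139) were higher, the latter with 1.56 and 1.65 against 0.903 and 0.963. TPI1, LDHA and ALDOA were higher by 0.32, 0.37 and 0.12, and PGK1 and ENO1 were lower by -0.48 and -0.36. The ALDOA call was lost under 2 of 8 alternative settings, with values down to 0.052. The direction of the transporter was thus the opposite of that of both hexokinases. With the block GPI and LDHB were called as well, at 0.08 and 0.14. The adjusted p was 0.0172 for GPI (range 0.0172 to 0.754 over 8 alternatives) and 1.39e-05 for LDHB (range 1.39e-05 to 0.124 over 8 alternatives). S phase genes were higher in 19 of 20 cases in this comparison, and their part in the differences was not tested.

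**Figure D4:**
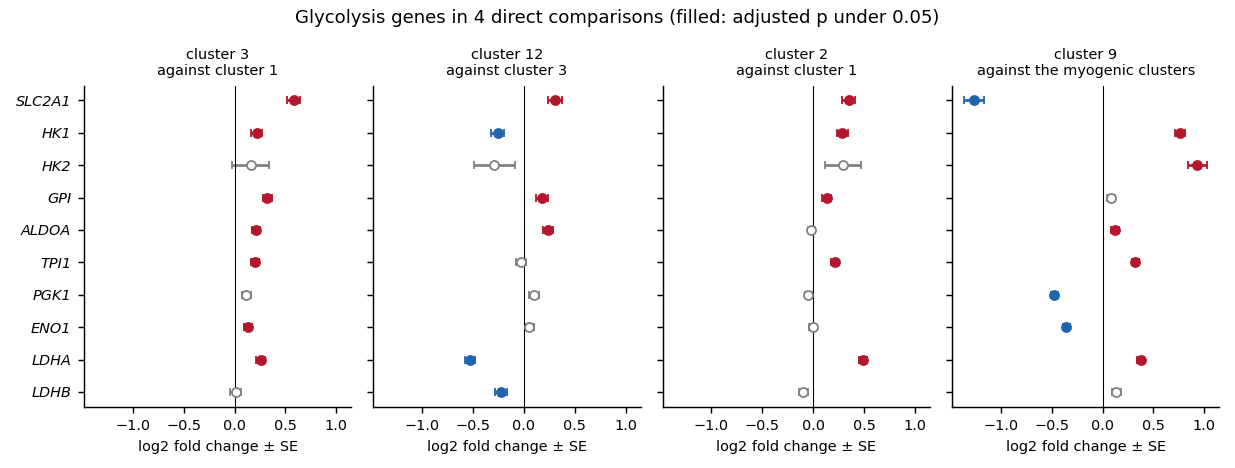
Log2 fold changes ± SE of the 10 genes from edgeR on 2 sums against 2, in 4 comparisons of clusters, with filled symbols (red higher, blue lower) for an adjusted p under 0.05 and open symbols otherwise. All called genes are higher in cluster 3 than in cluster 1, while LDHA is at -0.53 and SLC2A1 at 0.30 between clusters 12 and 3. SLC2A1 is at -1.26 and HK1 at 0.76 between cluster 9 and the myogenic clusters.

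Within clusters the single cells also differed. The summed level of the 10 genes had a median of 56.3 UMIs per 10000 in the cells of cluster 1, with a 10th percentile of 40.7 and a 90th percentile of 74.2. In cluster 11 these were 72.5, 57.9 and 89.9, in cluster 12 58.6, 46.3 and 70.6, and in cluster 10 38.2, 25.7 and 52.4. The ranges of neighbouring clusters therefore overlapped widely. After each cell was thinned to 2000 UMIs, the variance of the summed UMIs over their mean was 1.14 in clusters 9 and 12. In the other deep clusters it was between 1.19 and 1.58, where 1 is the value of counting error alone. Thinning left out 1898 shallower cells, all those of cluster 15 among them.

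**Figure D5:**
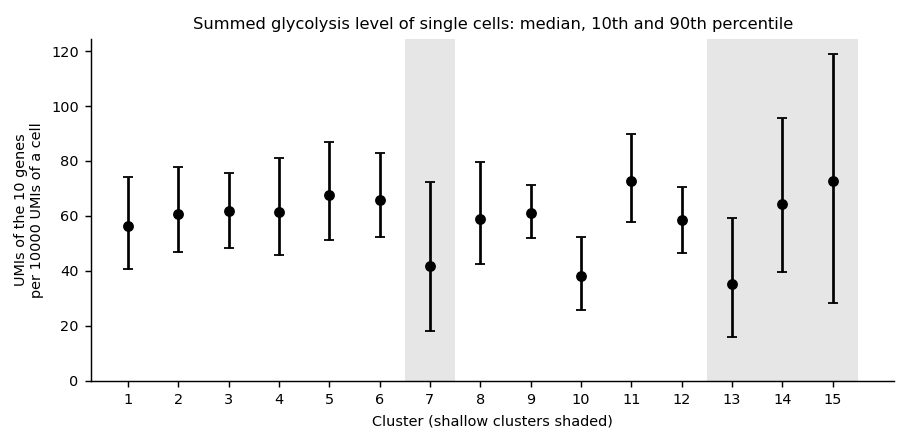
Summed level of the 10 genes in single cells (UMIs per 10000 UMIs of a cell) by cluster, with a point for the median and bars from the 10th to the 90th percentile of cells, and shallow clusters shaded. The medians run from 35.1 in cluster 13 to 72.6 in cluster 15, where few UMIs per cell widen the bars.

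ENO1 was detected in 97.8% of all cells, TPI1 in 93.8%, PGK1 in 92.7%, LDHB in 92.6%, ALDOA in 92.6% and LDHA in 89.8%. GPI was detected in 82.1%, HK1 in 67.7%, SLC2A1 in 38.9% and HK2 in 10.2%. At 2000 UMIs per cell the shares were 97.7% for ENO1, 59.1% for LDHA, 19.1% for HK1, 7.77% for SLC2A1 and 1.29% for HK2. In cluster 12, SLC2A1 was found in 12.8% of the thinned cells, beside 3.80% in cluster 9. No cell type in the culture should lack these genes, so MYH3, a myosin of embryonic muscle, was read for UMIs outside cluster 12. MYH3 was found in 74.0% of the thinned cells of cluster 12, in 1.2% of those of cluster 9 and in 0.488% of those of cluster 5, the lowest share. It was also found in 18.8% of those of cluster 7, 14.7% of cluster 3, 11.9% of cluster 13 and 8.71% of cluster 10. Whether these UMIs came from the cells themselves was not tested. The share of HK2 was between 0.396% and 2.22% over the deep clusters. MYH3 had 0.214 UMIs per thinned cell over all cells and HK2 0.0131, so the shares of MYH3 outside cluster 12 are not a background level for HK2.

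Within the deep clusters, cells that had more of 1 abundant gene tended to have more of another. Over cells with at least 5000 UMIs, the Spearman correlation of TPI1 and LDHA levels had a median of 0.395 over 22 combinations of cluster and library and was positive in 22. For ENO1 and LDHA the median was 0.346, for TPI1 and ENO1 0.308 and for ALDOA and LDHA 0.296. LDHB followed less, with medians between -0.037 (with SLC2A1) and 0.054 (with LDHA). Pairs with SLC2A1 or HK2 had medians near 0, where sparse counts leave little to see. The cells of a cluster share a library and differ in depth, so these are descriptions without a test.

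Across the 11 deep clusters, 33 of the 45 pairs of genes had a positive Pearson correlation of their levels, with a median of 0.474. HK2 and TPI1 (0.93), HK1 and LDHA (0.87), ALDOA and ENO1 (0.86) and GPI and ALDOA (0.86) went together most closely. For ALDOA and ENO1, cluster 10 lay apart from the other deep clusters. Its levels were 4.49 and 11.3, against 7.31 to 9.14 and 18.2 to 26.6 in the others. Cluster 9, with the lowest ENO1 of these others, had an ALDOA level of 8.70. SLC2A1 ran against HK2 (-0.71), HK1 (-0.61) and LDHA (-0.52). Over all 15 clusters these were 0.16, 0.22 and -0.63, and the median of the 45 pairs was 0.255. With the summed S phase genes the correlation was 0.90 for LDHA, 0.85 for HK1 and 0.70 for TPI1, and it was -0.34 for SLC2A1 and 0.05 for ENO1. For the summed level of the 10 genes it was 0.30. With the summed myocyte markers it was 0.69 for SLC2A1 and -0.78 for LDHA. With the summed myoblast markers it was 0.92 for SLC2A1, -0.82 for HK2, -0.75 for HK1 and -0.73 for LDHA. With the median depth it was 0.91 for ALDOA, 0.77 for LDHB, 0.76 for GPI, 0.74 for ENO1, 0.72 for TPI1 and 0.68 for HK2. It was 0.36 for PGK1, 0.23 for LDHA, 0.09 for HK1 and -0.16 for SLC2A1. Cluster 10, the least deep of the 11, had the lowest level of ALDOA, LDHB, GPI, ENO1, TPI1 and HK2 among them. Cluster 9, the deepest, was highest for LDHB, HK1 and HK2 and next to lowest for ENO1 (18.2). It was also lower than the other cells in the myoblast markers. Its SLC2A1 level was 0.179, against 0.302 to 0.596 in the other deep clusters. No correlation was computed without cluster 9 or without cluster 10. The 11 points share 2 libraries.

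Among the 1594 other genes at 1 UMI per 10000 or more, the genes most like the summed level over the 11 deep clusters were GLRX3 (0.960), DBI (0.946), PPIA (0.944), SF3B1 (0.935) and BUD23 (0.934), by the Pearson correlation of log2 levels. Cluster 10, with a sum of 39.7 against 57.1 to 73.4 in the other deep clusters, is among these 11 points. For HK1 the nearest was PGAM1 (0.951), the phosphoglycerate mutase of the same pathway, followed by EIF5A (0.939) and TOMM6 (0.935). The genes nearest to LDHA were XRN2 (0.966), CSRP2 (0.960) and DDX1 (0.952), and those nearest to LDHB were C5H12orf73 (0.984), DDX5 (0.974) and SPCS2 (0.972). For HK2 they were DEGS1 (0.973), SEC11A (0.970) and MTAP (0.947).

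The other 25 genes of glycolysis, isoforms and regulators of it included, were read beside the 10. In cluster 12, 22 of them passed the filter, of which 7 were higher and 6 lower, with a median of -0.08, beside 24.8% and 29.5% of all genes. GAPDH, the most abundant glycolysis gene of these cells at 34.6 UMIs per 10000 over all cells, had 33.9 and 36.1 in cluster 12 and 27.5 and 28.4 in cluster 9. Its log2 difference was 0.20 ± 0.05 in cluster 12 (adjusted p 0.0149), about the shift of 0.18 that TMM gave all genes there, and -0.37 ± 0.05 in cluster 9 (adjusted p 0.000868). PKM, the pyruvate kinase of muscle and of growing cells, had 24.6 and 25.4 in cluster 12 and 16.5 and 16.8 in cluster 9, with differences of 0.29 ± 0.04 and -0.56 ± 0.04. PGAM1 had 7.50 and 7.01 in cluster 12, 16.7 and 16.3 in cluster 9 and a mean of 12.4 over all cells, and was lower in the former (-0.62 ± 0.06, adjusted p 0.000262) and higher in the latter (0.43 ± 0.05, adjusted p 0.000674). GAPDH, PKM, PGK1 and ENO1 were thus all called lower in cluster 9, while TPI1 and PGAM1 were called higher.

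ENO3, PGAM2 and PFKM, which are muscle forms, were called higher in cluster 12. HK2, typical of muscle, and LDHA, predominant in fast muscle, were called lower there, as given above. ENO3 had 3.52 and 3.37 UMIs per 10000 there, against 0.165 and 0.136 in cluster 9 and a mean of 0.762 over all cells, a log2 difference of 2.61 ± 0.06 in cluster 12 (adjusted p 1.02e-06) and of -2.48 ± 0.09 in cluster 9. PGAM2, the muscle mutase, had 0.273 and 0.238 in cluster 12 (2.86 ± 0.12, adjusted p 9.80e-06) and 7 UMIs in cluster 9. HK3, not counted here among the muscle forms, had 68 of its 123 UMIs in cluster 12, at 0.0797 and 0.0304 in the 2 libraries. Of the phosphofructokinase genes, PFKM, the muscle form, was higher in cluster 12 (0.48 ± 0.10, adjusted p 0.00793), while PFKL (-0.28 ± 0.06, adjusted p 0.00723) and PFKP (-0.69 ± 0.07, adjusted p 0.000292) were lower. PFKM had 0.143 and 0.129 UMIs per 10000 there and PFKP 0.485 and 0.548, so that PFKP remained the more abundant.

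In cluster 9, 3 of the 22 were higher and 6 lower, with a median of -0.12, beside 25.3% and 27.7% of all genes. ENO2 was higher (0.98 ± 0.12, adjusted p 0.000742), at 0.116 and 0.0993 UMIs per 10000, and PFKL lower (-0.40 ± 0.05, adjusted p 0.000714). PFKM (-0.05 ± 0.10) and PFKP (0.06 ± 0.05) were not called. ALDOC had 59 UMIs in cluster 9 and 2 in cluster 12. From cluster 1 to cluster 3, 3 of 19 were higher and 1 lower, beside 40.2% of all genes called, and from cluster 3 to cluster 12, 4 of 17 were higher and 2 lower, beside 33.8%, with ENO3 at 0.38 ± 0.06 and 1.76 ± 0.06 in the respective comparisons. Between clusters 2 and 1, 3 of 20 were higher and 3 lower, beside 41.9% of all genes called. Between cluster 9 and the myogenic clusters 4 of 22 were higher and 6 lower, beside 56.5%. Over the remaining comparisons of a cluster with all other cells, between 0 and 4 of the 22 were higher and between 0 and 6 lower. The shares of all genes ran from 0.039% (cluster 15) to 24.5% (cluster 3) as higher. As lower they ran from 0.234% (cluster 15) to 26.4% (cluster 7).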

How the data were processed

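The authors aligned reads of 2 10x Genomics 3' libraries to ARS-UCD1.2 with Cell Ranger 3.0.2, counted UMIs and thinned the libraries to equal mapped reads per cell. They deposited these UMI counts per gene and cell, and a table of cluster averages, treated here as a score because the authors had scaled them to a common total per cell. That table also holds the authors' log2 fold changes and adjusted p-values per cluster, which were not used. The cluster of every cell was deduced from the averages, and with it 0 of 252240 gene and cluster sums differed. UMIs were summed per cluster and library and tested with edgeR 4.0.16 (TMM, filterByExpr, quasi-likelihood, Benjamini-Hochberg over all genes) in R 4.3.3. Each comparison sets sums of 2 libraries against sums of these 2, which pairs them by library, and the deviations of paired sums correlated by 0.167 to 0.669 over the 15 clusters. The main fit left this pairing out, and the fit with a library block used it. Alternatives were DESeq2 1.42.0, no TMM, no filter, a library block, doublets (Scrublet, scanpy 1.11.5) or cells under 2000 UMIs left out, equal weights of clusters, and reclustering without glycolysis genes. Intervals cover counting error only. On simulated data with 200 changed genes, the test recovered 33% of 1.5-fold and 79% of 3-fold changes in cluster 12 against all other cells. Between clusters 12 and 3 it recovered 55.5% and 92%. False calls were 2 at each fold in the former and 9 and 10 in the latter. The changed genes were drawn from all genes tested, with a common dispersion and no pairing by library. These rates are thus not those of the 10 genes. A difference that was not called does not show equal levels. The genes, the other lists, the comparisons and the rule for named genes (all 10 genes, 10 fixed glycolysis genes in clusters 12 and 9, the 2 largest called changes of each other list, and the genes most alike) were chosen with earlier results of these data known. HK3 was named after its values were seen. Some genes that the rule names are not reported here.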

Additional observations from a re-analysis of the deposited data

How the results depend on the processing

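Of the 106 values of the 10 genes called in the 19 comparisons, 71 kept their direction and their call under all alternatives run and 35 did not under at least 1. The calls lost were 11 without TMM, 7 with DESeq2, 9 with no filter on low counts, 2 without doublets, 4 without cells under 2000 UMIs, 12 with the other clusters weighted equally, 10 of 99 after reclustering without glycolysis genes, and 0 with the library as a replicate block. With the block the number of genes called was 9 in clusters 1, 5 and 6, 7 in cluster 2, and 5 in clusters 4 and 14. Of all genes, between 11.8% (cluster 14) and 49.9% (cluster 4) were called with the block in these clusters. Equal weights of the other clusters gave 6 called genes in cluster 2, 3 for cluster 4, 8 for cluster 6 and 7 for cluster 14. Beside these, 33.9%, 32%, 28.5% and 15.3% of all genes were called under this setting, most of them as higher. With no filter 1 was called in cluster 2 and 3 in cluster 6, and without doublets 1 in cluster 2. The respective shares of all genes were 22.4%, 14.3% and 32.5%. DESeq2 called 1 in cluster 4 and 3 between clusters 12 and 3, beside 24% and 21% of all genes. After reclustering, cluster 4 had 1 called gene, cluster 5 had 2 and cluster 8 had 3, beside 31%, 25.4% and 45.1% of all genes. Cells shared by a new and its deposited cluster, as a fraction of the cells in either, ran from 0.415 (cluster 5) to 0.999 (cluster 7). The fraction was 0.439 for cluster 12, so values after reclustering rest partly on different cells.

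Reversed log2 fold changes without TMM were GPI 0.17 in cluster 7, ENO1 -0.012 in cluster 12 and -0.045 between clusters 12 and 3, LDHB -0.026 between clusters 3 and 1, and ALDOA 0.030, PGK1 0.0038 and ENO1 0.048 between clusters 2 and 1. With the other clusters weighted equally they were ALDOA 0.056 in cluster 2, PGK1 0.0084 in cluster 8, and TPI1 0.16 and LDHB 0.044 in cluster 12. The remaining ones were LDHA 0.059 in cluster 3 after reclustering, TPI1 0.0011 in cluster 12 with DESeq2, and ENO1 0.014 between clusters 2 and 1 with no filter. The cause was not tested. The ratio of 1.85 between the highest and the lowest summed level of the deep clusters was 1.65 without ENO1 and 4.88 as mean UMIs per cell. In each library alone, where 1 sum against 1 allows no test, 0 of the 106 called values changed sign, and 13 of the 84 others did in 1 of the libraries. A call already rests on agreement of the 2 libraries, so the count for called values is no separate support. No value was obtained for cluster 15 without cells under 2000 UMIs, because no cell was left, nor for clusters 13 and 15 after reclustering, because no new cluster matched them. Depth limits HK2 in every cluster and all genes in clusters 13 and 15.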

Other observations

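The counts for genes of pathways next to glycolysis stand beside the shares of all genes called, which were 24.8% higher and 29.5% lower in cluster 12 and 25.3% higher and 27.7% lower in cluster 9. Of 8 pentose phosphate genes tested in cluster 12, 0 were higher and 4 lower, with a median log2 fold change of -0.33. TKT, a transketolase, had 0.176 and 0.209 UMIs per 10000 in cluster 12 and 3.48 and 3.44 in cluster 9, and differed from the other cells by -2.24 ± 0.09 (adjusted p 6.92e-06) and 2.19 ± 0.05 (adjusted p 1.55e-06). In cluster 9, 5 of 8 were higher and 0 lower, PGD among them (0.69 ± 0.04, adjusted p 5.55e-05). Of 13 genes of gluconeogenesis and glycogen tested in cluster 12, 6 were higher and 4 lower. GYS1, the glycogen synthase of muscle, had 0.728 and 0.855 UMIs per 10000 there, 0.317 and 0.309 in cluster 3 and 0.179 and 0.176 in cluster 1, and was higher than in the other cells by 2.51 ± 0.08 (adjusted p 3.74e-06). PYGM was also called higher, on 8 UMIs. In cluster 9, 5 of these genes were higher and 7 lower, and FBP2 was called higher on 12 UMIs.

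Of 18 genes of lactate transport and pyruvate entry, 7 were higher and 9 lower in cluster 12, with a median of -0.53, and 2 were higher and 7 lower in cluster 9. SLC16A1, a carrier of lactate and pyruvate, had 2.28 and 2.34 UMIs per 10000 in cluster 9 and 0.285 and 0.268 in cluster 12, and was higher in the former (1.80 ± 0.05, adjusted p 2.47e-06). EMB and SLC16A3 were called lower in cluster 12 on 1 and 3 UMIs, and PDK4 in cluster 9 on 10. Of 22 genes that respond to low oxygen, 3 were higher and 12 lower in cluster 12, and 5 were higher and 11 lower in cluster 9. EGLN3, an oxygen-dependent hydroxylase, went in opposite directions, at 2.71 ± 0.09 in cluster 12 and -2.11 ± 0.18 in cluster 9. NDRG1 was lower in cluster 12 (-2.46 ± 0.08) and VEGFA higher in cluster 9 (2.11 ± 0.06). Of 12 regulators of glycolysis, 2 were higher and 5 lower in cluster 12, with MYCN at 0 UMIs, and 0 were higher and 3 lower in cluster 9, with PPARGC1A at -2.25 ± 0.16 and TXNIP at -0.83 ± 0.08. Of 9 stress genes, 4 were higher and 3 lower in cluster 12 (FOS 1.35 ± 0.06, DDIT3 -1.33 ± 0.07), and 3 were higher and 5 lower in cluster 9 (FOS -2.17 ± 0.08, EGR1 -1.94 ± 0.06).

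In the direct comparisons, 33.8% of all genes were called between clusters 12 and 3 (18.2% higher, 15.6% lower), 40.2% between clusters 3 and 1 (21.1%, 19.1%) and 41.9% between clusters 2 and 1 (22.7%, 19.3%). Of 22 hypoxia genes, 1 was higher and 11 were lower in cluster 3 than in cluster 1, with DDIT4 at -1.57 ± 0.14 and NDRG1 at -1.28 ± 0.08. The corresponding counts were 3 higher and 8 lower of 19 between clusters 12 and 3 (EGLN3 2.51 ± 0.11, DDIT4 -0.999 ± 0.24) and 2 higher and 10 lower of 22 between clusters 2 and 1 (EPAS1 -2.22 ± 0.16, EGLN3 0.94 ± 0.13). Pentose phosphate genes were higher in 0 and lower in 4 of 7 cases between clusters 12 and 3 (TKT -0.65 ± 0.10), 1 and 2 of 7 between clusters 3 and 1 (TKT -0.65 ± 0.07, RPIA 0.57 ± 0.10) and 2 and 2 of 7 between clusters 2 and 1 (RPIA 0.71 ± 0.09, PGD 0.26 ± 0.04). Lactate and pyruvate genes were higher in 5 and lower in 3 of 14 cases between clusters 12 and 3 (PDP1 -0.72 ± 0.20, SLC16A1 -0.70 ± 0.08), 7 and 4 of 15 between clusters 3 and 1 (PDK4 -1.14 ± 0.27, DLAT 0.59 ± 0.07) and 4 and 4 of 16 between clusters 2 and 1 (DLAT 0.60 ± 0.06, SLC16A1 0.57 ± 0.06). Glycogen and gluconeogenesis genes were higher in 5 and lower in 2 of 12 between clusters 12 and 3 (GYS1 1.43 ± 0.08), 2 and 2 of 12 between clusters 3 and 1 (PCK2 -1.35 ± 0.05, PC -1.09 ± 0.09) and 1 and 6 of 12 between clusters 2 and 1 (PCK2 -1.09 ± 0.05, GBE1 -0.41 ± 0.13). Regulators were higher in 0 and lower in 2 of 8 between clusters 12 and 3 (MYC -0.87 ± 0.11), 1 and 5 of 9 between clusters 3 and 1 (MYCN -1.69 ± 0.49, PPARGC1A -1.18 ± 0.17) and 1 and 3 of 9 between clusters 2 and 1 (TXNIP -0.61 ± 0.09).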
